A study of Caenorhabditis elegans with 26 samples.

Results

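The nuclear hormone receptor genes of Caenorhabditis elegans were taken as all genes whose name in the WBcel235 annotation begins with nhr-, and 269 genes, all protein-coding, met this rule among 22277 genes and unmatched identifiers in the count table. What was counted on them was small RNA and not messenger RNA, so a value gives the small-RNA reads that match a receptor gene and not its expression. Reads of all transcripts of a gene were summed. Statistics were run on the 56 genes that were selected on a measured value, a total of 10 or more reads over the 6 libraries, and the other 213 genes are given as sums.

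The libraries were made from whole worms of 3 genotypes, with 2 libraries each. The first carried rde-3 together with mut-16(DE6R), the second carried mut-16(DE6R) alone, and the third was wild type (WT). Both mutant genotypes therefore share mut-16(DE6R), and rde-3 was compared only in worms that also carried it. The labels call all of them untreated and do not give stage, age, strain of origin, the nature of the DE6R change or whether the 2 libraries of a genotype came from separate cultures. The p-values below thus measure only the spread between the 2 libraries of a genotype, pooled over the 3 genotypes, which may be technical. Between the 2 libraries, the chi-square of the counts per degree of freedom was 1.16 in rde-3 mut-16(DE6R), 1.11 in mut-16(DE6R) and 1.80 in WT. These values are from genes with 50 or more reads in a genotype. In the mutants the spread was thus little above counting error, and the p-values do not measure a spread between cultures.

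Nuclear hormone receptors are transcription factors that bind DNA with a zinc-finger domain and often a small fat-soluble ligand with a second domain. In nematodes the family grew to a great size, largely from a gene like vertebrate HNF4, and most of the extra members have no known ligand or role. The members that have been studied act in moulting, fat metabolism, breakdown of foreign compounds and the response to pathogens and stress, many of them in the intestine and skin. MUT-16 is the scaffold of the mutator foci, granules at the germline nuclear envelope, and RDE-3, encoded by a gene annotated as mut-2, extends the 3′ ends of target RNAs so that an RNA-dependent RNA polymerase can copy them. The copies are the secondary small RNAs that Argonaute proteins use to silence genes.

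The libraries held 515300 and 584502 counted reads in rde-3 mut-16(DE6R), 620047 and 1571194 in mut-16(DE6R), with 1149904 and 1359593 in WT. A single gene, F56H9.8, took 55.5% of the reads in rde-3 mut-16(DE6R), 37.6% in mut-16(DE6R) and 50.6% in WT on average. Levels are given as CPM, the read count per 1000000 reads of a library after the trimmed-mean (TMM) scaling of edgeR. The TMM factors were 1.26 and 1.27 in rde-3 mut-16(DE6R), 1.34 and 1.31 in mut-16(DE6R), with 0.587 and 0.602 in WT, so the choice of scaling bears on every comparison with WT. Small-RNA reads on mut-16 itself were 7 and 8 in rde-3 mut-16(DE6R), 2 and 5 in mut-16(DE6R), 5 and 2 in WT. Those on mut-2, which encodes RDE-3, were 0 and 2 in rde-3 mut-16(DE6R), 3 and 4 in mut-16(DE6R), 0 and 1 in WT. These few reads do not check the genotypes. Small-RNA levels summed over marker genes were 1232 and 1230 CPM in rde-3 mut-16(DE6R), 966 and 1049 CPM in mut-16(DE6R), and 1103 and 1195 CPM in WT for 6 germline genes. For 5 intestine genes they were 294 and 243 CPM in rde-3 mut-16(DE6R), 118 and 129 CPM in mut-16(DE6R), and 25.2 and 31.8 CPM in WT. Only 1 of the 5, vit-2 with 768 reads, had 10 or more reads, and ifb-2 had 0. For 4 body wall muscle genes they were 194 and 188 CPM in rde-3 mut-16(DE6R), 61.3 and 63.0 CPM in mut-16(DE6R), and 26.7 and 29.3 CPM in WT. For 4 neuron genes they were 23.1 and 20.1 CPM in rde-3 mut-16(DE6R), 98.6 and 107 CPM in mut-16(DE6R), and 256 and 262 CPM in WT. None of the hypodermis and sperm marker genes had 10 reads, and their sums stayed at or under 4.81 CPM in every library. The part of tissue makeup in the results below was not tested, and in whole worms fewer cells of a type cannot be told apart from less small RNA per cell.

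Small RNAs covered the receptor family unevenly. Of the 269 genes, 85 had 0 reads in all 6 libraries, 128 had 1 to 9 reads and 56 had 10 or more, which is 20.8% of the family against 38.5% of all genes. The share with 10 or more reads was 142 of 311 for the F-box genes named fbxa-, fbxb- and fbxc-, and 37 of 53 for the bath- and btb- genes, both other large nematode gene families. The 7318 reads on receptor genes were concentrated: the 4 genes with the most reads held 46.8% of them, the 10 with the most held 69.8%, and 14 genes had 100 or more reads each. The 213 genes under 10 reads held 429 reads, 5.86% of the total.

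Just inside the threshold lay nhr-35 and nhr-121 with 10 reads and nhr-102 with 11. Just outside it lay nhr-179, nhr-139, nhr-66, nhr-23 and nhr-239 with 9 reads each, and nhr-112, nhr-128, nhr-134, nhr-69, nhr-173, nhr-277, nhr-97 and nhr-116 with 8 each. The threshold on a sum of raw reads lets a gene in through a genotype where it is high or where the libraries are larger. Of the 56 genes, 17 reached 10 reads only through mut-16(DE6R), 19 only through WT and 1 only through rde-3 mut-16(DE6R). The TMM-scaled sizes of the mut-16(DE6R) libraries were larger than those of the other 2 genotypes, so such a gene need not be high there. Counts and medians over the 56 are therefore given as a description of these genes and not as support for a direction of the family.

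Chromosome V, which carries most of the family, held 167 of the genes, 30 of the 56 tested genes and 45.5% of the receptor reads. Chromosome IV held 33 genes, 10 tested genes and 41.2% of the reads. Chromosome X held 23, 6 and 7.28%. The 46 genes on chromosomes I, II and III gave 10 tested genes. Chromosome IV owed its share to few genes: nhr-229, nhr-249, nhr-146 and nhr-236 all lie there and had 1170, 1045, 379 and 180 reads.

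**Figure D1:**
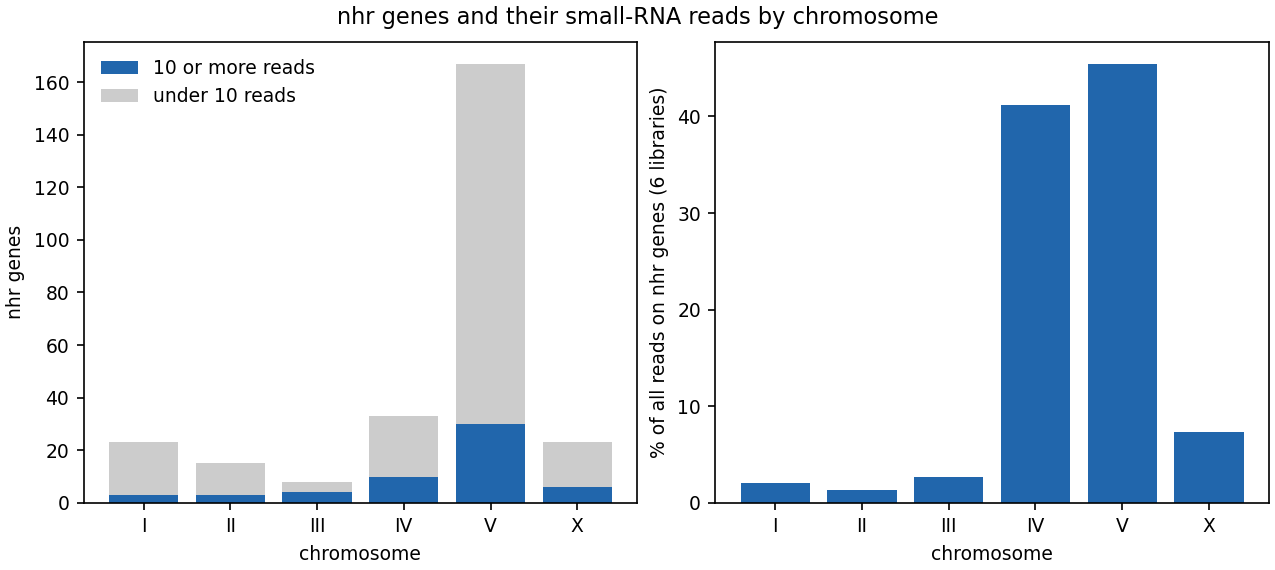
nhr genes by chromosome (left, number of genes, blue with 10 or more reads over the 6 libraries and grey under 10) and the share of all reads on nhr genes (right, percent, 6 libraries summed). Chromosome V has 167 genes and 45.5% of the reads, and chromosome IV has 33 genes and 41.2% of the reads.

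As a family, the receptor genes had fewer small RNAs in both mutants than in WT. Their share of all counted reads was 0.0369 ± 0.00147% in rde-3 mut-16(DE6R), 0.112 ± 0.00412% in mut-16(DE6R) and 0.176 ± 0.00971% in WT (SD, n = 2 each). Of reads outside F56H9.8 and the mitochondrial genes, it was 0.0896% and 0.0951% in rde-3 mut-16(DE6R), 0.188% and 0.198% in mut-16(DE6R), with 0.368% and 0.378% in WT. The libraries of the 3 genotypes did not overlap on either base. With 2 libraries each, an exact two-sided permutation test cannot go below p = 0.333, so no test of the sum was made.

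The size of the difference depended on the scale, and its direction did not. On the TMM scale the family sum was 284 and 298 CPM in rde-3 mut-16(DE6R), 814 and 876 CPM in mut-16(DE6R), and 2880 and 3037 CPM in WT. That is 9.84% and 28.6% of WT for the double and the single mutant, against 21.0% and 63.8% as shares of all reads and 24.8% and 51.7% as shares of reads outside F56H9.8 and the mitochondrial genes. Without nhr-229, the gene with the most reads, the shares of all reads were 0.0343%, 0.0799% and 0.159% in rde-3 mut-16(DE6R), mut-16(DE6R) and WT.

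The 213 genes under 10 reads together took 0.0132% of reads outside F56H9.8 and the mitochondrial genes in rde-3 mut-16(DE6R), 0.0148% in mut-16(DE6R) and 0.0162% in WT, from 58, 179 and 192 reads. On the TMM scale their sum was 41.5 ± 2.10 CPM in rde-3 mut-16(DE6R), 64.6 ± 9.05 CPM in mut-16(DE6R) and 128 ± 7.27 CPM in WT (SD, n = 2 each). Within the family, the leading gene was another one in each genotype. In rde-3 mut-16(DE6R) nhr-196 led with 14.7% of the receptor reads, in mut-16(DE6R) nhr-229 led with 28.8%, and in WT nhr-249 led with 19.2%.

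**Figure D2:**
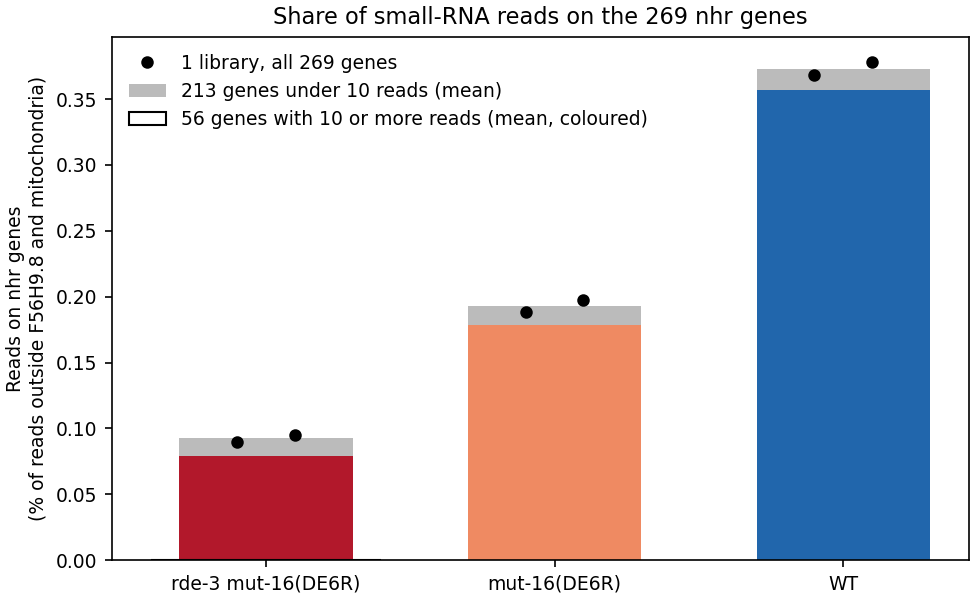
Share of small-RNA reads on the 269 nhr genes (percent of reads outside F56H9.8 and the mitochondrial genes) in rde-3 mut-16(DE6R), mut-16(DE6R) and WT. Coloured bars are means over 2 libraries for the 56 genes with 10 or more reads, grey tops are means for the other 213, and points are single libraries for all 269; the points run from 0.0896% to 0.378% with no overlap between genotypes.

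In WT the small RNAs of the family fell on a short list of receptors, none with a role that can be given here. The highest level was that of nhr-249 (IV:6971898-6972527, WBGene00022726), with 10.8 and 5.37 CPM in rde-3 mut-16(DE6R), 46.9 and 70.7 CPM in mut-16(DE6R), and 538 and 594 CPM in WT. Its longest listed transcript has 488 bases, the shortest of the leading genes. Per 1000 bases of transcript its level was 16.5 CPM in rde-3 mut-16(DE6R), 121 CPM in mut-16(DE6R) and 1160 CPM in WT. Per length nhr-249 thus stood apart in WT, since the next genes were nhr-58 with 251 CPM per 1000 bases, nhr-229 with 217 and nhr-146 with 150.

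The other leading genes in WT had the following levels. nhr-58 (V:532259-534070) had 9.23 and 1.34 CPM in rde-3 mut-16(DE6R), 39.7 and 48.5 CPM in mut-16(DE6R), and 326 and 335 CPM in WT. nhr-15 (V:312721-323650) had 4.61 and 2.68 CPM in rde-3 mut-16(DE6R), 46.9 and 53.3 CPM in mut-16(DE6R), and 279 and 285 CPM in WT. For both genes the 3 genotypes stood in clear steps, lowest in the double mutant, with no overlap. nhr-3 (X:14558504-14561432) had 3.08 and 2.68 CPM in rde-3 mut-16(DE6R), 40.9 and 42.2 CPM in mut-16(DE6R), and 144 and 176 CPM in WT. nhr-141 (V:7444661-7446833) had 3.08 and 10.7 CPM in rde-3 mut-16(DE6R), 21.6 and 29.1 CPM in mut-16(DE6R), and 141 and 160 CPM in WT. The same steps were seen, although the double mutant libraries of nhr-141 lay further apart.

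Some of the leading genes were already near their lowest level in mut-16(DE6R) alone. nhr-146 (IV:1626805-1630756) had 4.61 and 0 CPM in rde-3 mut-16(DE6R), 8.42 and 7.75 CPM in mut-16(DE6R), and 207 and 260 CPM in WT. nhr-236 (IV:2327126-2329640) had 1.54 and 4.03 CPM in rde-3 mut-16(DE6R), 9.62 and 3.88 CPM in mut-16(DE6R), and 104 and 110 CPM in WT. nhr-228 (V:2281759-2284963) had 0 and 2.68 CPM in rde-3 mut-16(DE6R), 1.2 and 1.45 CPM in mut-16(DE6R), and 62.2 and 68.5 CPM in WT. In nhr-236 and nhr-228 the libraries of the 2 mutants overlapped, and in all 3 genes both mutants lay far below WT. In nhr-146 they did not overlap, and the double mutant had 28.5% of the single mutant level.

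One gene was near its WT level in mut-16(DE6R) and low only with rde-3 added. nhr-229 (IV:17028931-17030594, WBGene00013795) had 27.7 and 14.8 CPM in rde-3 mut-16(DE6R), 231 and 254 CPM in mut-16(DE6R), and 290 and 280 CPM in WT. Another 3 genes kept more of their WT level in the double mutant than the rest of the genes with 100 or more reads. These were nhr-196 with 77.7%, nhr-70 with 77.5% and nhr-247 with 32.8% in CPM. In mut-16(DE6R) nhr-196 (35.2%) and nhr-247 (18.9%) kept no more than nhr-47 (38.1%). nhr-196 (V:15685716-15687715) had 41.5 and 44.3 CPM in rde-3 mut-16(DE6R), 22.8 and 16 CPM in mut-16(DE6R), and 57.8 and 52.6 CPM in WT. nhr-247 (V:15322982-15325379) had 29.2 and 37.6 CPM in rde-3 mut-16(DE6R), 18 and 20.4 CPM in mut-16(DE6R), and 114 and 89.3 CPM in WT. Both were lowest in the single mutant, with no overlap. nhr-70 (V:18616587-18620243) had 21.5 and 21.5 CPM in rde-3 mut-16(DE6R), 18 and 17.9 CPM in mut-16(DE6R), and 23.7 and 31.8 CPM in WT.

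**Figure D3:**
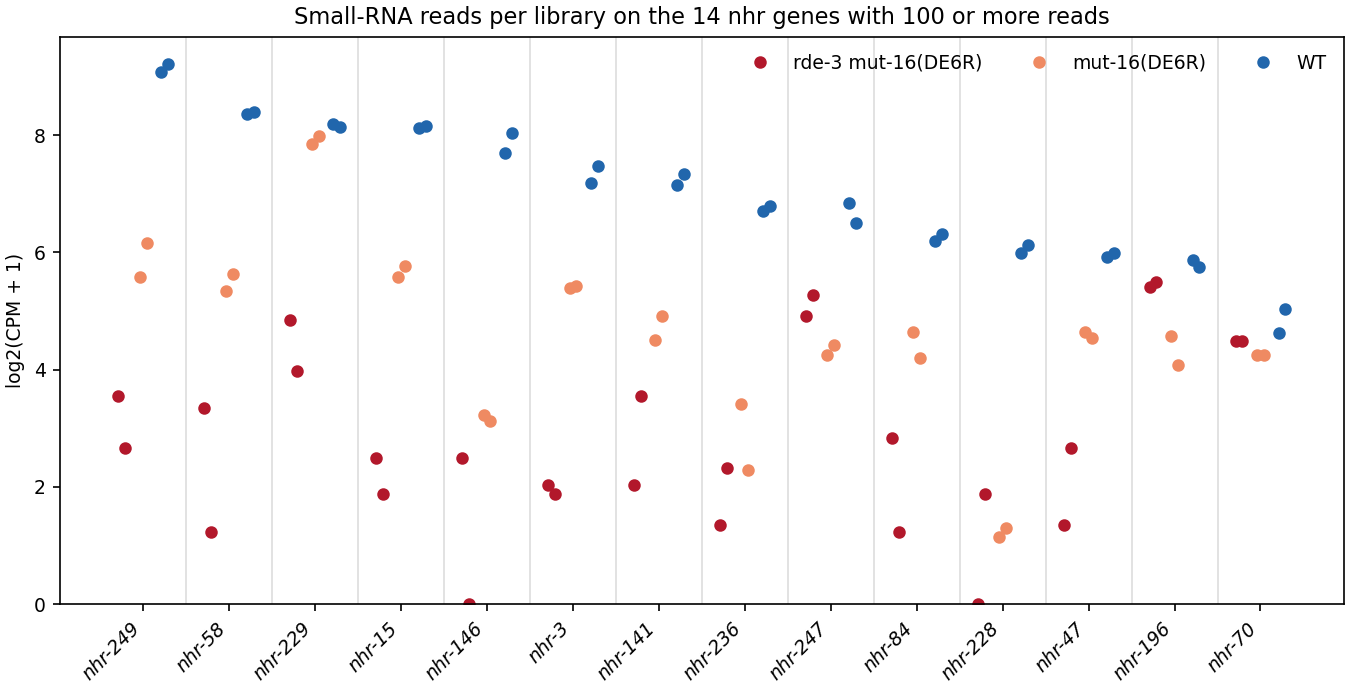
Small-RNA level, log2(CPM + 1), of the 14 nhr genes with 100 or more reads, 1 point per library, for rde-3 mut-16(DE6R), mut-16(DE6R) and WT from left to right within each gene. nhr-249, nhr-58, nhr-15, nhr-3, nhr-141, nhr-84 and nhr-47 descend in steps to the double mutant. nhr-229 stays near WT in mut-16(DE6R) (231 and 254 against 290 and 280 CPM), and nhr-196 and nhr-247 are lowest there.

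The comparison of mut-16(DE6R) with WT asked which receptor genes differ in small RNAs with the mut-16 allele alone. With edgeR's quasi-likelihood test and Benjamini-Hochberg adjustment over 8574 genes, 24 of the 56 receptor genes were lower and 4 were higher at an adjusted p under 0.05. Of all tested genes, 31.4% were lower and 15.9% were higher. The median log2 fold change was -0.99 for the 56 and -0.20 for all tested genes. The split depended on the scaling: 15 were lower and 14 higher by library totals, and 19 were lower and 11 higher by totals that left F56H9.8 out. DESeq2 called 16 lower and 0 higher. The shares of all tested genes called in these other fits are not given here, so the recounts describe the 56 genes only. The count of 4 higher genes became 1 without replicate 2 of mut-16(DE6R), 2 without replicate 1 of WT and 0 without replicate 2 of WT.

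Among the 14 genes with 100 or more reads, 12 fell in mut-16(DE6R) relative to WT, and the log2 fold changes of the 14 ran from -5.44 to -0.21. A gene high in WT can be among the 14 through its WT reads, so this count describes the genes picked. The share called lower among all genes with 100 or more reads is not given here. With library totals 10 of the 14 were still lower, and nhr-196 (-0.45) and nhr-47 (-0.26) no longer passed. The largest falls were those of nhr-228 with a log2 fold change of -5.44 (SE 0.45), nhr-146 with -4.87 (SE 0.22) and nhr-236 with -4.24 (SE 0.30). The last moved to -3.43 without replicate 2 of mut-16(DE6R). nhr-249 fell by 3.16 (SE 0.12) on the log2 scale and nhr-58 fell by 2.85 (SE 0.14), with adjusted p-values of 1.35e-155 and 1.18e-88 in edgeR. nhr-141 (-2.49), nhr-15 (-2.45), nhr-247 (-2.35), nhr-84 (-1.95), nhr-3 (-1.94), nhr-196 (-1.60) and nhr-47 (-1.41) fell less far. All 12 genes kept the call when any of the 6 libraries was left out.

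nhr-229 and nhr-70 did not pass in this comparison. The log2 fold change of nhr-229 was -0.21 (SE 0.11, edgeR adjusted p = 0.0857), and it turned to 0.15 with upper-quartile factors and to 0.94 with library totals, where it passed as higher. That shift is as large as the shift of the median of all tested genes, which turned from -0.20 to 0.94 under library totals. The log2 fold change of nhr-70 was -0.64 (SE 0.33, edgeR adjusted p = 0.0954) and turned to 0.50 with library totals. Of the 14 genes nhr-229 kept the highest part of its WT level in mut-16(DE6R): 85.0%, against 64.8% for nhr-70, 38.1% for nhr-47, 35.2% for nhr-196 and 10.4% for nhr-249 in CPM.

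The falls among genes with fewer reads in mut-16(DE6R) rested on small numbers. Folds given with a counting interval or as a bound are ratios of the reads of both libraries of a genotype over their summed TMM-scaled sizes, and so differ from ratios of mean CPM. nhr-190 had 2 reads in mut-16(DE6R) and 35 in WT, 33.9-fold lower with a counting interval of 8.72 to 291. nhr-254 had 1 read in mut-16(DE6R) and 14 in WT, 27.2-fold lower with an interval of 4.13 to 1148. nhr-6, the orthologue of the NR4A receptors and needed to build the spermatheca, had 1 read in mut-16(DE6R) and 13 in WT, 25.2-fold lower with an interval of 3.79 to 1072. All intervals are 95% and cover counting error only, and in these 3 genes every read of mut-16(DE6R) came from its replicate 2. nhr-81 fell by 3.73 on the log2 scale, with 4 reads in mut-16(DE6R) and 30 in WT, and by 2.78 without replicate 2 of WT. nhr-130 fell by 2.92, with 13 reads in mut-16(DE6R) and 52 in WT. nhr-122 had 2 reads in mut-16(DE6R) and 12 in WT and lost the call without replicate 2 of mut-16(DE6R) (log2 fold change -2.56). The remaining 6 falls were those of nhr-253, nhr-243, nhr-95, nhr-88, nhr-180 and nhr-132. Of these nhr-243 (-1.60) lost the call without replicate 1 of WT (-0.55) and without replicate 2 of mut-16(DE6R) (-1.37), and nhr-253 (-2.31) moved to -3.66 without replicate 2 of mut-16(DE6R). Leaving out that library also ended the calls of nhr-95 (-2.43, then -1.42), nhr-88 (-2.69, then -2.45) and nhr-180 (-2.65, then -1.53), without replicate 1 of mut-16(DE6R) nhr-95 and nhr-180 moved to -3.18 and -3.58, and nhr-132 (-1.72) lost the call without any 1 of the 4 libraries compared (-1.88 to -1.61).

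The 4 rises were low as well, and none of them held in DESeq2, which called 0 receptor genes higher, while 4 also had an unadjusted p under 0.05 in edgeR. nhr-20 had 18 and 17.4 CPM in mut-16(DE6R), against 5.93 and 2.45 CPM in WT. Its log2 fold change was 2.10 (SE 0.56, edgeR adjusted p = 6.80e-04), moved to 2.78 without replicate 1 of WT and lost the call without replicate 2 of WT (1.57). nhr-45, which acts in the response to mitochondrial stress, had 22 reads in mut-16(DE6R) and 1 in WT, 11.3-fold higher with a counting interval of 1.83 to 468. Its log2 fold change lost the call without replicate 2 of WT (2.26), and without replicate 1 WT had 0 reads. nhr-32 had 23 reads in mut-16(DE6R) and 3 in WT, 3.95-fold higher with an interval of 1.19 to 20.6, and lost the call without replicate 2 of mut-16(DE6R) (1.78) and without either WT library (2.57 and 1.40). nhr-120 had 11 reads in mut-16(DE6R), all in replicate 2, and 0 in WT. With WT set to a floor of 3 reads over the group, that is at least 1.89-fold higher. The libraries of the 2 genotypes overlapped, and the call was lost without either WT library. Of the 4, nhr-45, nhr-32 and nhr-120 lie on chromosome X, where 6 receptor genes were tested. The share of all chromosome X genes called higher is not given here.

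The comparison of the double mutant with WT asked the same with rde-3 added. Of the 56 receptor genes 30 were lower and 0 were higher in edgeR, against 35.0% lower and 17.3% higher of all tested genes. At an unadjusted p under 0.05 there was 1 higher gene, nhr-32 (log2 fold change 1.90, edgeR adjusted p = 0.0662). DESeq2 called 20 lower and 0 higher. The median log2 fold change was -2.67 for the 56, or -1.65 with 11 of the 12 genes at 0 reads in the double mutant set to their bound (nhr-35, with 1 read in WT, has none), and -0.40 for all tested genes. By library totals 21 were lower and 4 higher, and by totals that left F56H9.8 out 20 were lower and 5 higher. The median of all tested genes moved to 0.68 and 0.83 with these 2 scalings. The shares of all tested genes called in the other fits are not given here, so the recounts describe the 56 genes only. Without replicate 1 of the double mutant 1 gene was higher. This comparison and the previous one share the WT libraries.

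Most of the leading genes fell. Relative to WT, nhr-15 fell by 6.25 (SE 0.30) on the log2 scale, nhr-249 fell by 6.15 (SE 0.21) and nhr-3 fell by 5.75 (SE 0.36). nhr-58 fell by 6.01 (SE 0.27), and by 7.76 without replicate 1 of the double mutant and 5.14 without replicate 2. nhr-146 had 3 reads in rde-3 mut-16(DE6R) and 353 in WT, 110-fold lower with a counting interval of 37.3 to 536, and all 3 reads were in replicate 1, so that its log2 fold change was -5.63 without replicate 2. nhr-228 had 2 reads in rde-3 mut-16(DE6R), both in replicate 2, and 98 in WT, 45.8-fold lower with an interval of 12.3 to 384 and a log2 fold change of -4.49 without replicate 1. The 12 genes that fell among the 14 with 100 or more reads kept the call without any of the 6 libraries, and nhr-247 lost it under library totals. Here too a gene can be among the 14 through its WT reads, so the count of 12 describes the genes picked. The share called lower among all genes with 100 or more reads is again not given.

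The next genes had few reads in the double mutant, and a single library moved their fold change. The log2 fold change was -5.16 for nhr-236 with a range of -6.01 to -4.63 over left-out libraries, and -4.38 for nhr-141 with a range of -5.56 to -3.74. For nhr-84 it was -4.35 with a range of -5.64 to -3.59, and for nhr-47 it was -4.04 with a range of -5.20 to -3.42. In each of the 4 genes the ends of the range came from leaving out either library of rde-3 mut-16(DE6R). nhr-229 fell by 3.77 (SE 0.20, edgeR adjusted p = 9.03e-74), with a range of -4.20 to -3.35.

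nhr-196 and nhr-70 did not pass against WT with rde-3 added either. nhr-196 had a log2 fold change of -0.35 (SE 0.26, edgeR adjusted p = 0.258), and nhr-70 one of -0.38 (SE 0.37, edgeR adjusted p = 0.392). Scaled to library totals, nhr-196 turned to 0.74 and passed as higher in rde-3 mut-16(DE6R), and scaled to totals without F56H9.8 both passed as higher, with 0.89 and 0.86. nhr-247 fell by 1.58 (SE 0.24), the smallest fall among the leading genes that passed, and did not pass with library totals (-0.49) or totals without F56H9.8 (-0.33). Together nhr-196, nhr-247 and nhr-70 made up 33.7% of the receptor reads in rde-3 mut-16(DE6R), 6.48% in mut-16(DE6R) and 6.19% in WT.

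Among genes with fewer reads, 12 of the 56 had 0 reads in rde-3 mut-16(DE6R), and 10 of these passed as lower than WT. A gene with 0 reads there is among the 56 only through its reads in WT and mut-16(DE6R), so this count describes the genes picked. The share called lower among all tested genes with 0 reads there is not given here. Against a floor of 3 reads over the double mutant group, nhr-81 was at least 9.35-fold lower, nhr-253 at least 8.10-fold, nhr-243 at least 5.92-fold, nhr-254 at least 4.36-fold and nhr-6 at least 4.05-fold. nhr-171 and nhr-180 were each at least 3.43-fold lower, nhr-238 and nhr-150 at least 2.49-fold and nhr-85 at least 1.87-fold. nhr-85, the orthologue of vertebrate Rev-Erb and a part of the developmental timing system, lost the call without either double mutant library or without replicate 1 of mut-16(DE6R), and nhr-238 lost it without replicate 1 of WT or replicate 2 of the double mutant. nhr-150 lost it without either double mutant library. nhr-130, with 1 read in the double mutant and 52 in WT, was 48.6-fold lower with a counting interval of 8.35 to 1956. nhr-190, with 1 read against 35, was 32.7-fold lower with an interval of 5.50 to 1329. Without replicate 1 of the double mutant nhr-130 had a log2 fold change of -4.52, and without replicate 2 nhr-190 had one of -3.82, each against a single read. nhr-122, with 1 read against 12, was 11.2-fold lower with an interval of 1.66 to 480 and lost the call without replicate 1 of the double mutant. nhr-2, which acts in the early embryo, had 9.23 and 2.68 CPM in rde-3 mut-16(DE6R) and 16.3 and 13.5 CPM in WT, and its fall of 1.34 lost the call without each of 5 libraries in turn, down to -0.67 without replicate 2 of the double mutant, and was -2.35 without its replicate 1. nhr-17 (-2.42), nhr-88 (-3.15), nhr-95 (-2.70) and nhr-132 (-3.49), with 3, 1, 2 and 1 reads in the double mutant, each lost the call without its replicate 1 (-2.06, -2.30, -2.74 and -2.64). nhr-17 and nhr-95 also lost it without replicate 2 of WT (-2.15 and -2.70), and nhr-95 without replicate 2 of the double mutant (-2.61).

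**Figure D4:**
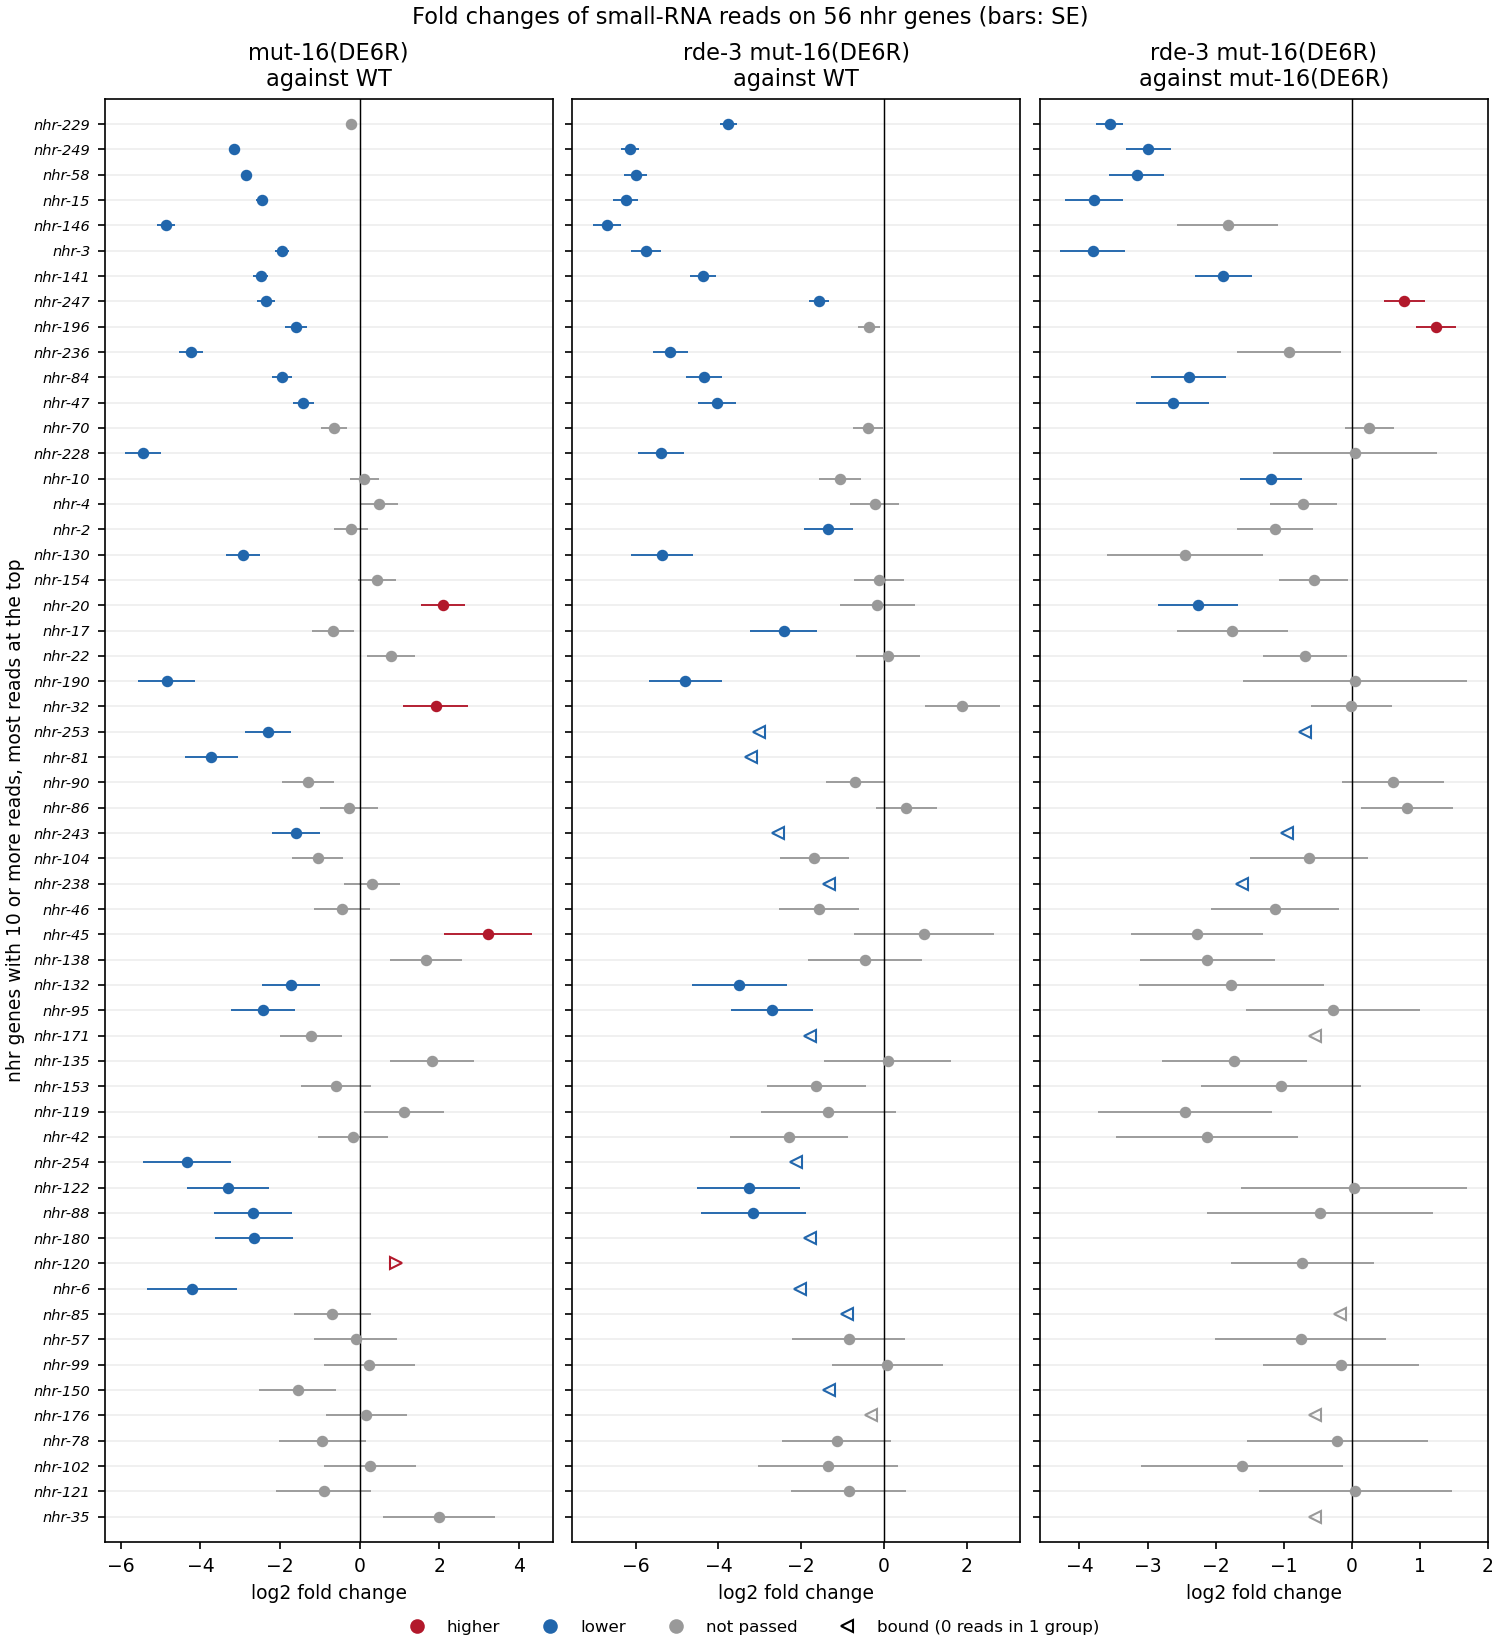
log2 fold change of small-RNA reads for the 56 nhr genes with 10 or more reads, genes with the most reads at the top, in mut-16(DE6R) against WT, rde-3 mut-16(DE6R) against WT, and rde-3 mut-16(DE6R) against mut-16(DE6R). Points with bars are edgeR estimates with their SE, open triangles are bounds where 1 group has 0 reads, a row with no mark has no such bound above 1-fold, and colour marks higher, lower or not passed; 24, 30 and 13 genes are lower and 4, 0 and 2 are higher.

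The comparison of rde-3 mut-16(DE6R) with mut-16(DE6R) bears on rde-3 where the mut-16 allele is present in both. Of the 56 genes 13 were lower and 2 were higher in edgeR, against 18.2% lower and 8.88% higher of all tested genes. The median log2 fold change was -1.76 for the 56, or -0.94 with 9 of the 12 genes at 0 reads in the double mutant set to their bound (the other 3 had 3 reads or fewer in mut-16(DE6R)), and -0.24 for all tested genes. DESeq2 called 8 lower and 1 higher, and its share of all tested genes called is not given here. The 13 lower genes became 8 without replicate 2 of the double mutant, and the 2 higher genes became 1 without it or without replicate 1 of mut-16(DE6R) and 0 without replicate 2 of mut-16(DE6R). This comparison shares the libraries of each mutant with one of the comparisons above.

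Reads that the mut-16 allele alone had left were lower with rde-3 added in most of the leading genes. Relative to mut-16(DE6R), nhr-3 fell by 3.81 (SE 0.47) on the log2 scale, nhr-15 fell by 3.79 (SE 0.43) and nhr-229 fell by 3.56 (SE 0.20, edgeR adjusted p = 1.15e-69). The call for nhr-229 held in each of the 5 other scalings and tools, between -3.62 and -3.13, and in each of the 6 fits with a library left out. nhr-58 fell by 3.16 (SE 0.40), with a range of -4.94 to -2.29 over left-out libraries, and nhr-249 fell by 2.99 (SE 0.33). nhr-47 (-2.63, range -3.78 to -2.03) and nhr-141 (-1.89, range -3.07 to -1.28) kept the call, and nhr-84 (-2.40, range -3.71 to -1.64) lost it without replicate 2 of the double mutant. Again the ends of each range came from leaving out a library of rde-3 mut-16(DE6R).

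nhr-196 and nhr-247 were the genes that rose with rde-3 added. nhr-196 had a log2 fold change of 1.25 in rde-3 mut-16(DE6R) relative to mut-16(DE6R) (SE 0.29, edgeR adjusted p = 1.84e-04). It passed under all 5 other scalings and tools, with values from 1.19 to 1.68, and did not pass without replicate 2 of mut-16(DE6R) (0.91). nhr-247 had a log2 fold change of 0.77 (SE 0.30, edgeR adjusted p = 0.0410). This call was lost in DESeq2 (0.79), with library totals (0.71), with no filter on reads (0.48), without replicate 2 of rde-3 mut-16(DE6R) (0.57) and without either library of mut-16(DE6R) (0.74 and 0.89).

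nhr-146 (-1.82, edgeR adjusted p = 0.0513), nhr-236 (-0.92), nhr-228 (0.05) and nhr-70 (0.26) did not pass between the mutants. In the first 3 of these both mutants had few reads. rde-3 mut-16(DE6R) had 3 reads for nhr-146, 4 for nhr-236 and 2 for nhr-228, and mut-16(DE6R) had 23, 16 and 4. The libraries of the 2 mutants did not overlap for nhr-146, which passed as lower by library totals (-1.90, edgeR adjusted p = 0.0426) and not under the other scalings or in DESeq2. Of the genes with fewer reads, nhr-20 fell to 0 and 6.71 CPM in rde-3 mut-16(DE6R), against 18 and 17.4 CPM in mut-16(DE6R) (log2 fold change -2.26, SE 0.59), and lost the call without replicate 1 of the double mutant (-1.35). nhr-10 fell by 1.18 (SE 0.45) and lost the call without either library of either mutant (-1.25 to -1.08). nhr-238, nhr-243 and nhr-253 had 0 reads in the double mutant and were at least 3.05-fold, 1.93-fold and 1.61-fold lower, and each lost the call without 1 or more of the mutant libraries.

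**Figure D5:**
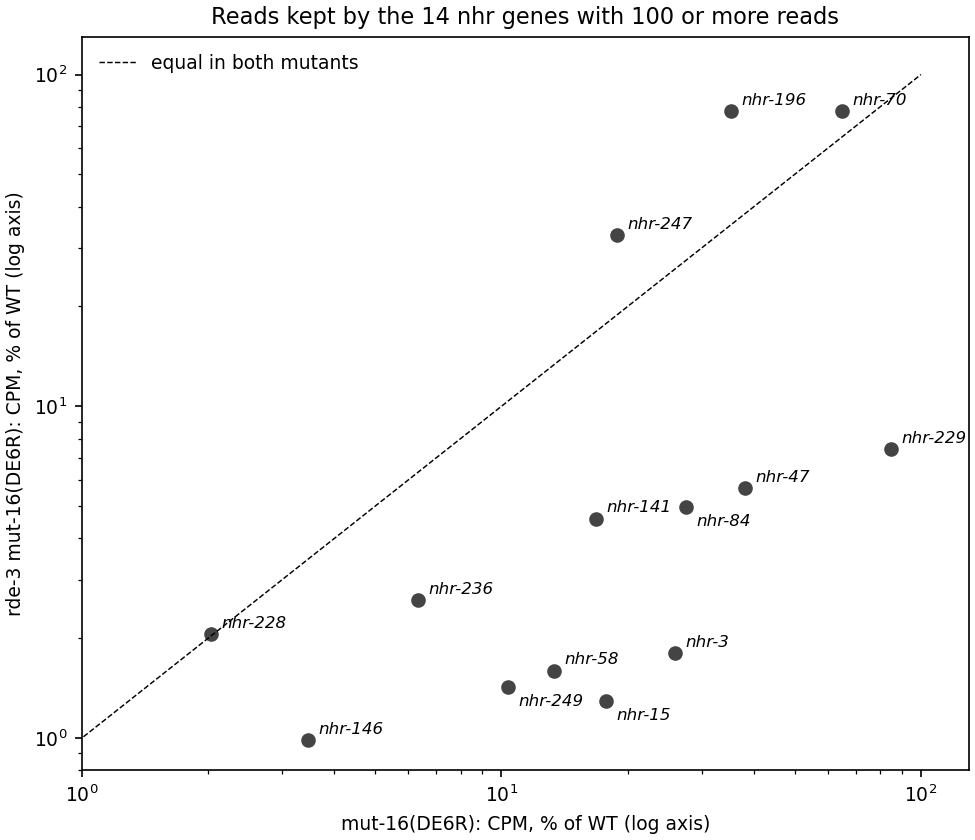
Level kept by the 14 nhr genes with 100 or more reads, as percent of the WT mean CPM, in mut-16(DE6R) (x axis, log scale) and rde-3 mut-16(DE6R) (y axis, log scale), with a dashed line where both are equal. nhr-229 lies at the far right and low (85.0% and 7.44%), nhr-196 (35.2% and 77.7%) and nhr-247 (18.9% and 32.8%) lie above the line, and nhr-146 lies at the lower left (3.46% and 0.986%).

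Taking the 3 comparisons side by side, 9 genes were lower in both mutants than in WT and lower in the double than in the single mutant: nhr-249, nhr-58, nhr-15, nhr-3, nhr-141, nhr-84, nhr-47, nhr-253 and nhr-243. For nhr-243 the call in mut-16(DE6R) against WT was lost in DESeq2 (-1.64), with upper-quartile factors (-1.24) and by library totals (-0.46). Its call between the mutants was lost in DESeq2 too (-4.02). For nhr-253 the call between the mutants was lost in DESeq2 (-3.52), with upper-quartile factors (-4.81) and with only the 2 groups compared (-4.89). In mut-16(DE6R) against WT the call of nhr-253 was lost in DESeq2 (-2.50) and by library totals (-1.18). In 13 genes both mutants were lower than WT and the step between the mutants did not pass, among them nhr-146, nhr-236, nhr-228, nhr-130 and nhr-190. In nhr-229 and nhr-238 the double mutant was lower than both of the others while mut-16(DE6R) against WT did not pass. In another 5 genes, nhr-2, nhr-17, nhr-171, nhr-85 and nhr-150, the double mutant against WT was the single comparison that passed. No comparison passed in 20 genes, namely nhr-70, nhr-4, nhr-154, nhr-22, nhr-90, nhr-86, nhr-104, nhr-46, nhr-138, nhr-135, nhr-153, nhr-119, nhr-42, nhr-57, nhr-99, nhr-176, nhr-78, nhr-102, nhr-35 and nhr-121.

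Of 29 receptors with a studied role, 8 reached 10 reads, 21 did not and 6 had 0 reads, with 334 reads in all. That is 27.6% with 10 or more reads and 20.7% with 0, against 20.8% and 31.6% of the whole family. Of the 9 conserved receptors, nhr-6 and nhr-85 were tested, and both were lower in rde-3 mut-16(DE6R) than in WT from counts of 0 against 13 and 0 against 6. Of the 9 receptors of lipid and nutrient metabolism only nhr-10, which acts with nhr-68 in propionate breakdown, was tested. It had 9.23 and 8.05 CPM in rde-3 mut-16(DE6R), 19.2 and 19.9 CPM in mut-16(DE6R), and 19.3 and 17.1 CPM in WT, and passed only between the mutants.

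Of the 8 receptors of stress, metal and xenobiotic response, 4 were tested. nhr-45 was the one that passed, in mut-16(DE6R) against WT. nhr-86, which senses a pathogen metabolite in the intestine, had 3.08 and 12.1 CPM in rde-3 mut-16(DE6R), 2.41 and 5.33 CPM in mut-16(DE6R), and 2.96 and 7.34 CPM in WT, with overlap throughout. nhr-57, which is induced by hypoxia through HIF-1, had 2 reads in rde-3 mut-16(DE6R), 7 in mut-16(DE6R) and 4 in WT. nhr-176, which acts in the breakdown of the anthelmintic thiabendazole, had 0 reads in rde-3 mut-16(DE6R), 9 in mut-16(DE6R) and 4 in WT. Neither passed in any comparison. Of the 7 developmental receptors only nhr-2 was tested.

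Genes around the receptors, from a list of 23 ligand-making enzymes, cofactors, targets and nuclear receptors with other names, were also read from the same fit. Of these 21 were in the table and 7 were tested. In mut-16(DE6R) against WT 2 were higher and 3 lower, in the double mutant against WT 0 were higher and 2 lower, and between the mutants 0 were higher and 3 lower. Of all tested genes, 15.9% were higher and 31.4% lower in the first comparison, 17.3% and 35.0% in the second, and 8.88% and 18.2% in the third. strm-1, a sterol methyltransferase that limits the making of the DAF-12 ligand dafachronic acid, had 6 and 5 reads in rde-3 mut-16(DE6R), 53 and 137 in mut-16(DE6R), with 313 and 370 in WT. Its log2 fold change was -2.80 in the single mutant and -5.84 in the double mutant relative to WT, steps like those of the leading receptors.

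acs-2, an acyl-CoA synthetase gene and a known target of NHR-49, had 4 and 4 reads in rde-3 mut-16(DE6R), 109 and 265 in mut-16(DE6R), with 127 and 160 in WT. Its log2 fold change relative to WT was -0.57 (SE 0.13) in the single mutant and -5.04 (SE 0.30) in the double mutant. By library totals the first turned to 0.58 and passed as higher, and it did not pass with upper-quartile factors (-0.21), with totals that left F56H9.8 out (0.24) or in DESeq2 (-0.57). din-1, the DAF-12 corepressor gene, had 3 and 7 reads in rde-3 mut-16(DE6R), 14 and 46 in mut-16(DE6R), with 6 and 4 in WT, a log2 fold change of 1.60 in the single mutant relative to WT and of -1.51 in the double relative to the single. Without replicate 2 of mut-16(DE6R) neither passed (1.33 and -1.22), nor did the first without replicate 2 of WT (1.22) or the second without replicate 1 of the double mutant (-1.09), and without its replicate 2 the second was -2.13. In DESeq2 neither passed (1.53 and -1.47). daf-36, an enzyme early in dafachronic acid synthesis, was lower in mut-16(DE6R) than in WT (log2 fold change -1.60, SE 0.51), and cbp-1, a coactivator gene, had 12 reads in mut-16(DE6R) and 0 in WT and passed as higher. daf-36 lost the call by library totals (-0.47), by totals that left F56H9.8 out (-0.79), in DESeq2 (-1.54) and without replicate 2 of WT (-0.74) or of mut-16(DE6R) (-1.37), and cbp-1 without either WT library. sex-1, a nuclear receptor that counts X chromosomes, and let-19, a Mediator subunit gene, did not pass in any comparison.

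Several close neighbours on a chromosome differed widely in reads. Another nhr gene lay within 5000 bases of 142 of the 269 genes, in 101 pairs. Both genes were tested in 4 pairs, 1 gene in 18 pairs and neither in 79. nhr-58 lay 375 bases from nhr-132, and they had 634 and 23 reads. nhr-84 lay 323 bases from nhr-102, and they had 174 and 11 reads. nhr-146 lay 99 bases from nhr-87, which had 5 reads, nhr-196 lay 244 bases from nhr-197, which had 0, and nhr-228 lay 468 bases from nhr-227, which had 3.

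Reads could also come from genes that overlap a receptor gene, since the use of strand in the counting is not given in the sources used here. Exons on the opposite strand overlapped 13 of the 56 tested genes, 8 of them from a protein-coding gene. Exons on the same strand overlapped 5. The 4 piRNA loci opposite nhr-229 are of a class with 0 loci in the count table, and their reads cannot be told apart from reads of nhr-229 here. F43C1.5, opposite nhr-20, had 1 read in rde-3 mut-16(DE6R), 6 in mut-16(DE6R) and 30 in WT, the other way round from the rise of nhr-20 in mut-16(DE6R). Of the tested genes 12 had more than 1 listed transcript, and in 8 of these a single transcript held over 90% of the reads. In nhr-15 it was F33E11.1a.2 with 75.8%. Taking the transcript with the most reads in place of the sum left all the counts of lower and higher genes as they were.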

How the data were processed

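Small RNAs of whole worms were cloned after PIR-1 treatment and linker ligation, per the labels' protocols. cutadapt 4.9, Bowtie 1.3.1 and the WBcel235 build were used, per the submitters' processing notes, with no settings. How reads were counted, by strand or not, and what was done with multi-mapping reads and duplicates, is not given in the sources used here, so near-identical copies and overlapping genes cannot be told apart. The authors deposited whole-number read counts per transcript for 6 libraries. Reads mapped to a transgene in 20 tethered libraries were not used here.

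Of 34324 identifiers, 33755 matched a transcript and 190 a sequence name of the Ensembl WBcel235 annotation, 379 matched none (1.97% of reads), and 1 row named no gene and held 0 reads. Counts were summed to genes. The 8574 genes with 10 or more reads over the 6 libraries (99.6% of reads) were tested in 1 fit of 3 groups with edgeR 4.0.16 in R 4.3.3 (robust quasi-likelihood F test, TMM factors, 3 residual degrees of freedom), with Benjamini-Hochberg adjustment at 0.05. The SE of a log2 fold change is its size divided by the square root of F and restates the p-value. The coefficient of variation that edgeR calls biological was 0.0409, and it comes from the same spread between libraries. Against a group at 0 reads a fold is a bound from a floor of 3 reads over that group. With 1 to 3 reads an exact 95% counting interval is given. Intervals and bounds cover counting error only, since reads without molecular identifiers are not independent molecules.

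The members, the lists and the tests were chosen with earlier results of these data known. Genes named in the text were the 10 highest in WT, the 10 largest rises and falls per comparison (adjusted p under 0.05, at least 5 CPM, no overlap), tested genes of the role lists and genes at the read threshold. Others, such as nhr-70, nhr-120 and the full lists of calls, were named after their values were seen. Alternatives were DESeq2 1.42.0, other scalings, filters, a replicate block, 2 groups at a time, 1 transcript per gene and leaving out each library. The fit was tested on simulated counts for rde-3 mut-16(DE6R) against WT with 8539 genes: it recovered 94% of 4-fold rises, 64% of 4-fold falls, 70% of 2-fold rises and 42% of 2-fold falls, 50 genes each, and called 0.0240% of unchanged genes. All simulated libraries came from a common mean profile with the same spread for every gene. The changed genes were few and were drawn from those well above the read threshold. The simulation therefore does not check the scaling or the genes near the threshold.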

Additional observations from a re-analysis of the deposited data

How the results depend on the processing

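The falls of the leading receptor genes held under most settings, and the counts of rises did not. In mut-16(DE6R) against WT, the 4 rises became 0 in DESeq2, 1 with edgeR's expression filter, 14 by library totals, 11 by totals that left F56H9.8 out and 2 with the replicate block, and 0 to 4 with a library left out (0 without replicate 2 of WT). The 24 falls became 16 in DESeq2, 15 with the expression filter and 15 with library totals, and 18 to 24 with a library left out. For the double mutant against WT, the 0 rises became 1 with upper-quartile factors, 4 by library totals and 5 by totals that left F56H9.8 out, and 0 to 1 with a library left out (1 without replicate 1 of the double mutant). The 30 falls became 20 in DESeq2, 15 with the expression filter and 23 to 28 with a library left out. Between the mutants, the 2 rises became 1 in DESeq2, with library totals, with no filter and with the replicate block, and 0 to 2 with a library left out. The 13 falls became 8 in DESeq2 and 8 to 14 with a library left out (8 without replicate 2 of the double mutant). The expression filter tests fewer genes, and the causes of the other changes were not tested. For these other settings the shares of all tested genes called are not given here. The median log2 fold change of the 56 genes in mut-16(DE6R) against WT turned to 0.12 with library totals. The median of all tested genes turned with the scaling too: for the single and the double mutant against WT and the double against the single it was -0.20, -0.40 and -0.24 with TMM, 0.16, 0.24 and 0.03 with upper-quartile factors, 0.94, 0.68 and -0.30 with library totals, and 0.61, 0.83 and 0.17 when F56H9.8 was left out of the totals. The shares of 0.0369%, 0.112% and 0.176% of all reads in rde-3 mut-16(DE6R), mut-16(DE6R) and WT were 0.0923%, 0.193% and 0.373% when F56H9.8 and mitochondrial reads were left out, and 0.0343%, 0.0799% and 0.159% without nhr-229. For the nhr genes named by rule that passed with the settings of the report, 868 of 955 values under other settings kept direction and call. Of the rest, 87 lost the call and 0 changed sign. The rule favoured large changes without overlap, so this tally does not stand for all calls in the family. Calls of nhr-17, nhr-88, nhr-95, nhr-120, nhr-132, nhr-150 and nhr-180 were not among these values. Each of these genes lost a call with a library left out. Genes with no result under a setting gave no value, so the expression filter gave 42 values and median-ratio factors gave 62. Outside the family, acs-2 in mut-16(DE6R) against WT did change sign, from -0.57 to 0.58 by library totals. Values that had not passed did turn, such as nhr-229 in mut-16(DE6R) against WT (0.94 by library totals) and nhr-196 in the double mutant against WT (0.74). Libraries with the same replicate number did not deviate together (correlations of -0.0129, -0.0144 and 0.0109 over 4879 genes), and the replicate block gave 22, 27 and 12 falls in the 3 comparisons. With it the rise of nhr-247 between the mutants (0.76) lost the call.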

Other observations

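Other large nematode gene families were read from the same fit, for the size of their values only. Of 142 tested F-box genes (fbxa-, fbxb- and fbxc-), 92 were lower and 5 higher in mut-16(DE6R) than in WT, and 99 were lower and 6 higher in rde-3 mut-16(DE6R) than in WT. Of 37 tested bath- and btb- genes, 21 were lower and 2 higher in mut-16(DE6R), and 22 were lower and 4 higher in rde-3 mut-16(DE6R), each relative to WT. Of all tested genes, 31.4% were lower and 15.9% higher in mut-16(DE6R), and 35.0% were lower and 17.3% higher in rde-3 mut-16(DE6R). The median log2 fold changes in the double mutant relative to WT were -3.85 and -3.57 for these families, against -2.67 for the receptor genes and -0.40 for all tested genes. Whether the families differ from each other was not tested.

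RefSeq lists 14 pseudogenes with nhr- names that the gene-name rule did not take in. They held 9 reads in rde-3 mut-16(DE6R), 24 in mut-16(DE6R) and 23 in WT. Of the 14, 5 had 0 reads and 3 had 10 or more. By chromosome, the summed level of the tested receptor genes was 51.5 CPM in rde-3 mut-16(DE6R), 349 CPM in mut-16(DE6R) and 1231 CPM in WT on chromosome IV, and 156, 294 and 1337 CPM in the same genotypes on chromosome V. On chromosome III, with 4 tested genes, it was 13.4, 38.9 and 33.6 CPM. The share of receptor genes with 10 or more reads was 18.0% on chromosome V and 30.3% on chromosome IV, against 25.6% and 39.2% of all genes there.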
